A study of Caenorhabditis elegans with 23 samples.

Results

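The comparison described here sets germline-deficient Caenorhabditis elegans collected on day 8 against animals of the same genotype collected at a stage labelled L3, the third larval stage. Its members are the 3 day 8 arrays and the 3 L3 arrays of glp-1(e2141ts) worms on the empty RNAi vector (EV), 6 of the 23 arrays of the series, chosen by their labels alone. All 22548 probe sets of the array were read on each of them. The whole series crossed 2 genotypes, glp-1(e2141ts) and wild type (WT, strain N2), with RNAi against ash-2 or EV and with the same 2 ages. Each array carried RNA of whole worms grown at 20 degrees. Besides the 6 arrays, use was made of WT EV worms (2 arrays on day 8 and 3 at L3, after the submitters left out 1 day 8 array for quality) and, side by side, of glp-1(e2141ts) worms under ash-2 RNAi (3 arrays at each age).

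GLP-1 is the Notch receptor that keeps germline stem cells dividing, and the temperature-sensitive allele e2141ts leaves only a few germ cells, per the submitters' design text. The labels give growth at 20 degrees for every sample and no shift to a restrictive temperature, and they do not say from which event day 8 was counted. They state that samples were taken in triplicate but not whether the triplicates were separate cultures, so p-values measure the spread between these samples, which may be technical.

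Larvae build a new collagen cuticle at each moult, driven by pulses of gene expression in the hypodermis, and adults no longer moult. The hermaphrodite makes sperm in the last larval stage and oocytes afterwards, while the adult intestine makes yolk proteins, stores fat and faces ingested bacteria and toxins. Worms without a germline are known for a long life that needs the FOXO transcription factor DAF-16 and lipid-handling enzymes in the intestine.

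The deposited log2 intensities of the ages lie on different scales. The array medians were 4.97 to 5.01 for day 8 glp-1 EV and 5.72 to 5.81 for L3 glp-1 EV, whereas the 90th percentiles were 9.49 to 9.53 and 9.67 to 9.72. The values were therefore quantile normalized over all 23 arrays for the levels and changes given below, and each change was also read on the deposited values and after centring each array on its median. The median change over all probe sets, day 8 minus L3, was 0.05 on the quantile-normalized scale, -0.35 on the deposited scale and 0.44 after median centring, so small changes take their sign from the scaling. A gene is said to have risen or fallen only where limma's two-sided test gave an adjusted p under 0.05 with the same sign under all 3 scalings. Each age seems to have been normalized apart by the submitters, and age cannot be told apart from any difference in processing that the arrays of an age share. On the quantile-normalized scale the 10th percentile lies at 3.77, the median at 5.41 and the 90th percentile at 9.60. The files hold no detection calls, so a level near the low end cannot be told from background signal, and changes that start or end there may be understated.

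**Figure D1:**
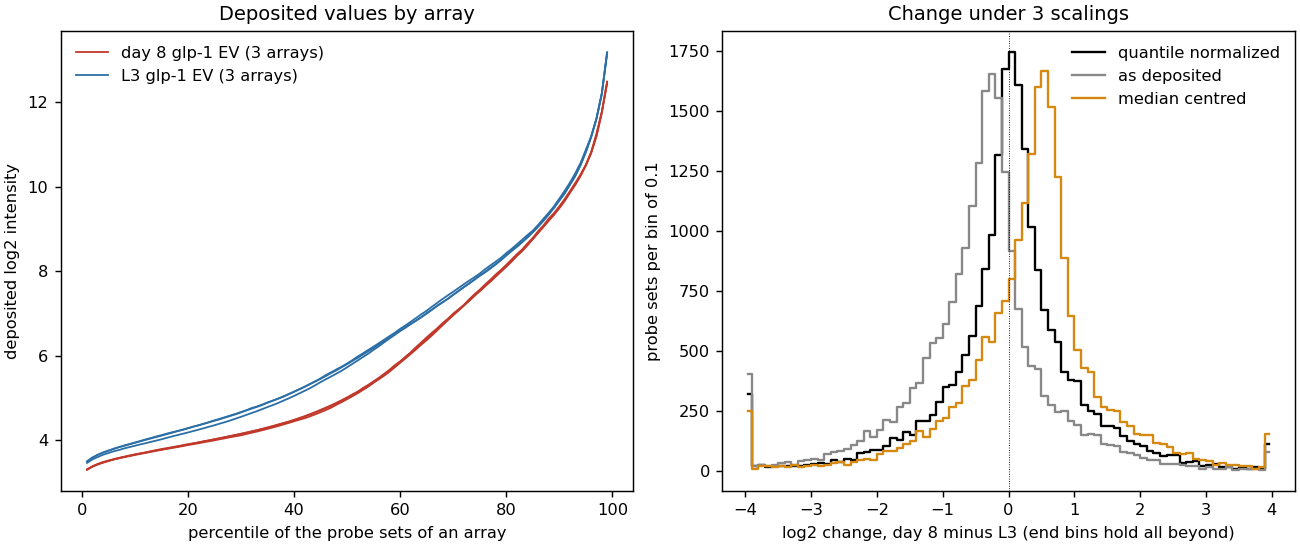
Left, deposited log2 intensity (y axis) at each percentile of the probe sets of an array (x axis), with 1 line per array for the 3 day 8 and the 3 L3 glp-1 EV arrays. Right, number of probe sets per bin of log2 change, day 8 minus L3, under the 3 scalings, with medians of 0.05 quantile normalized, -0.35 as deposited and 0.44 median centred.

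Of the 22548 probe sets, 3708 rose (16.4%) and 4390 fell (19.5%) on day 8 by that rule, 35.9% in either direction. Under 1 scaling alone, 32.1% were higher and 27.8% lower as quantile normalized, 16.4% and 55% as deposited, and 58.4% and 19.6% as median centred. With 1 probe set taken per gene, 2761 of 17116 genes rose (16.1%) and 3464 fell (20.2%), together 36.4%, and these shares are the background for every count of genes below. The change was at least 2-fold for 2079 of the genes that rose and 2167 of those that fell, at least 16-fold for 93 and 222, and at least 64-fold for 17 and 44. Correlations between arrays of an age across probe sets averaged 0.986 to 0.989 on day 8 and 0.993 to 0.994 at L3. The RNA came from whole animals, in which fewer cells of a type and less RNA per cell cannot be told apart.

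Markers of stage and tissue bore on the labels before any result was read. The arrays labelled L3 carried signal for genes that mark the end of larval life and the adult. The adult cuticle collagen gene col-19 read 10.28, 10.53 and 11.05 on day 8 against 12.38, 12.24 and 11.74 at L3, so it was lower on day 8 in every array. Yolk genes and the adult collagen gene bli-1 also read above 10 on every L3 array. Of the larval regulators, lin-28 averaged 6.53 on day 8 and 6.62 at L3, lin-14 3.81 and 3.87, and hbl-1 8.38 and 8.22, and none of these passed the test. The moulting genes mlt-10 and nas-37 both fell. In the WT EV arrays, too, col-19 averaged 12.03 at L3. The L3 samples are therefore called by their label, and their exact stage is not taken as known.

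Female germline markers and sperm markers differed in how they stood to the glp-1 label. The yolk receptor gene rme-2, an oocyte gene, averaged 5.88 at both ages in glp-1 EV, against 12.15 on day 8 and 10.01 at L3 in WT EV. The log2 of the summed signal of the 7 female germline markers was 8.22 to 8.39 on day 8 and 8.17 to 9.06 at L3. That of the 5 measured sperm markers was 8.97 to 9.51 on day 8 but 12.7 to 13.1 at L3, and msp-31 averaged 12.74 in L3 glp-1 EV, against 13.54 in L3 WT EV. Of the other sperm markers, gsp-3, a sperm phosphatase gene on a shared probe set as msp-31 is, averaged 7.81 in L3 glp-1 EV, against 10.32 in L3 WT EV. Signal of sperm genes was thus present in the L3 samples labelled glp-1. The probe set of glp-1 itself averaged 6.36 on day 8 and 6.27 at L3 and did not pass the test, and it checks no label because e2141ts does not remove the transcript. Of the markers of other tissues, 5 of 5 for hypodermis, 4 of 4 for body muscle, 4 of 4 for pharynx and 5 of 5 measured for sperm fell. Among neuronal markers 2 of 4 rose and none fell, and among intestinal markers 3 of 6 rose and 1 fell. None of the 4 male markers passed. The log2 of the summed hypodermal marker signal was 10.5 to 11.3 on day 8 and 13.5 to 13.6 at L3, while that of the intestinal markers was 15.3 on every day 8 array and 14.8 to 14.9 at L3.

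L3 replicate 3 stood apart from the other L3 arrays in yolk and oocyte genes. The mean over the yolk list was 12.57, 12.62 and 11.52 on L3 replicates 1, 2 and 3, and the early embryonic gene pos-1 read 7.92, 8.88 and 4.85 on them. Day 8 replicate 1 read higher than the others of its group for the pharyngeal muscle genes, with myo-1 at 8.21 against 5.73 and 5.92. It was also the highest for peptide genes, and day 8 replicates 2 and 3 differed there too. On day 8 replicates 1, 2 and 3 the list mean was 8.29, 7.07 and 7.56 for FMRFamide-like genes. It was 7.61, 7.04 and 7.40 for neuropeptide-like genes, and 6.16, 5.34 and 5.72 for insulin-like genes. Where leaving out one of these arrays changes a count given below by more than 1.5-fold, or ends a call, this is stated. Smaller shifts of counts are not given.

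The largest rises and falls were taken among genes with a probe set of their own whose ages do not overlap, so that separation is part of the choice. Among them, the largest rise was that of cyp-35B1, a cytochrome P450 gene known as a target of DAF-16, which read 11.79, 11.95 and 11.79 on day 8 against 3.88, 4.13 and 3.95 at L3. Its change was 7.86 ± 0.12 on the log2 scale (SE, n = 3 arrays per age, limma adjusted p = 2.01e-20), or 232-fold. The next was ilys-3, an invertebrate-type lysozyme, at 12.10, 12.41 and 12.72 on day 8 against 5.10, 5.13 and 4.93 at L3, a change of 7.35 ± 0.36. Others among the 10 largest rises were nlp-39, a neuropeptide-like gene (6.79 ± 0.21), dct-7, named as a DAF-16 controlled gene (6.74 ± 0.30), cyp-34A9, another cytochrome P450 gene (6.13 ± 0.13), and lys-10, a lysozyme gene (6.07 ± 0.17). The non-coding RNA tts-1, known to be abundant in long-lived insulin receptor mutants, read 13.71, 13.51 and 13.56 on day 8 against 7.57, 8.26 and 7.02 at L3. Its change was 5.98 in glp-1 EV and 6.72 in WT EV, a difference that did not pass the test. The remaining 3 were C54C8.12 (6.97 ± 0.21), F48E3.2 (6.80 ± 0.18) and F15B9.6 (6.34 ± 0.14).

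The largest fall was that of col-97, a cuticle collagen gene, which read 3.34, 3.09 and 3.45 on day 8 against 11.71, 11.78 and 11.52 at L3. Its change was -8.37 ± 0.15 (SE, n = 3 arrays per age, limma adjusted p = 7.15e-20). Collagens also made up col-48 (-7.52 ± 0.19), col-39 (-7.13 ± 0.23) and bli-1 (-7.09 ± 0.19) of the 10 largest falls. BLI-1 forms the struts between the layers of the adult cuticle, and its gene read 4.21, 3.99 and 3.86 on day 8 against 10.61, 11.22 and 11.51 at L3. The others were Y47D7A.13 (-7.52 ± 0.18), E01G4.6 (-7.47 ± 0.14), ZK180.5 (-7.09 ± 0.24), dbd-13 (-6.96 ± 0.17), F58E6.13 (-6.67 ± 0.16) and Y102A11A.5 (-6.61 ± 0.15). A second probe set of F58E6.13 changed by -0.11 and did not pass, so the probe sets of that gene disagree.

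**Figure D2:**
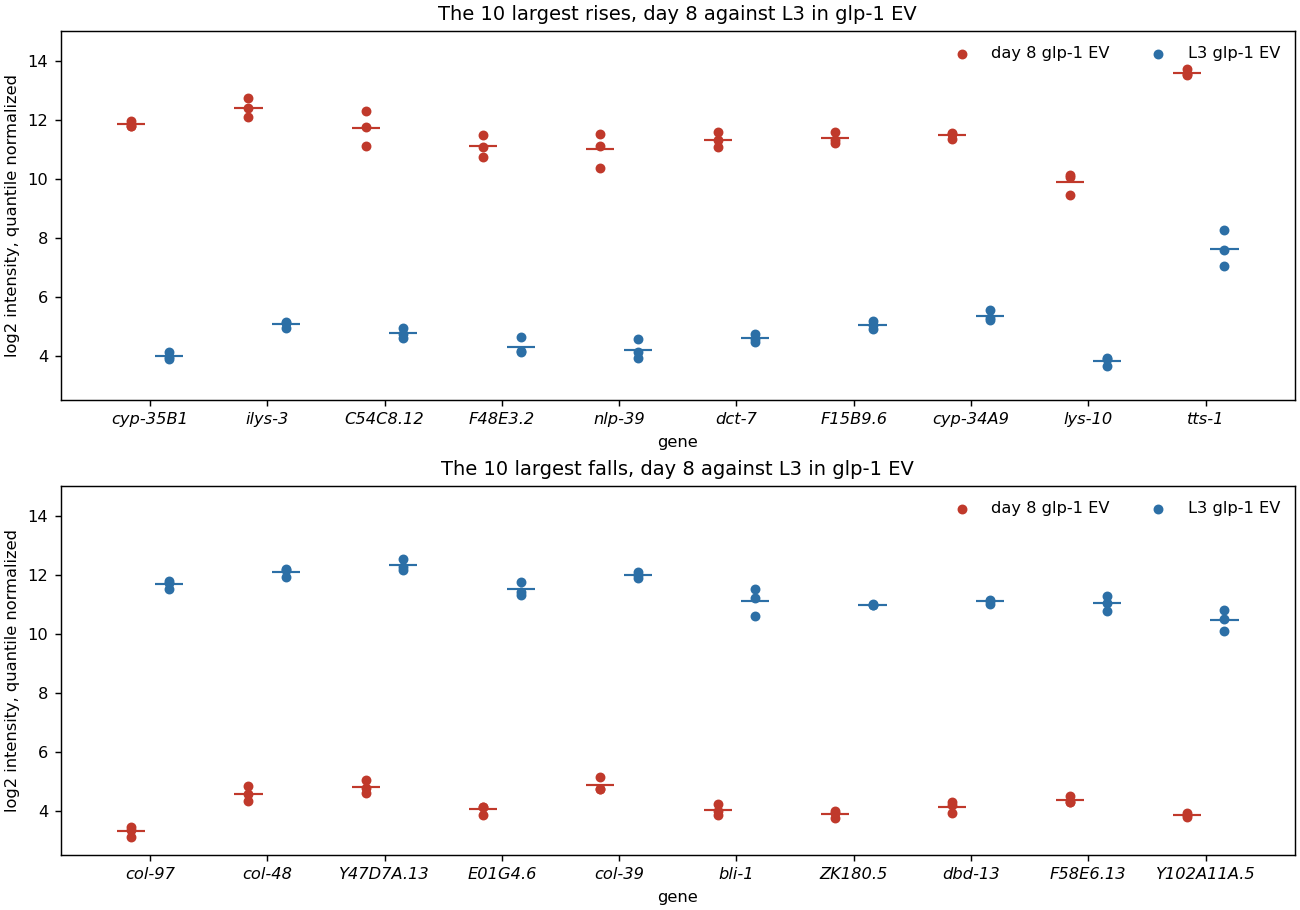
Quantile-normalized log2 intensity (y axis) of the 10 genes with the largest rises (top) and the 10 with the largest falls (bottom), with 1 point per array, day 8 left of L3, and a line at the mean of 3 arrays. Genes were chosen for ages that do not overlap, and the means run from cyp-35B1 at 11.84 against 3.99 to col-97 at 3.30 against 11.67.

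Cuticle collagen transcripts were far lower on day 8. Of 128 numbered collagen genes (col), 102 fell and 7 rose, with a median change of -2.02, beside a median of 0.03 over all genes. Of 18 measured genes named for the body shape or blistering of their mutants, which are mostly cuticle collagens, 17 fell and none rose, with a median change of -4.37. The collagen gene rol-8 read 4.71, 4.21 and 4.33 on day 8 against 10.68, 10.95 and 11.10 at L3 (-6.50 ± 0.15), and bli-2, whose protein also belongs to the adult cuticle struts, changed by -6.06 ± 0.24. The collagen gene sqt-3 read 6.55, 7.54 and 7.39 on day 8 against 12.61, 12.81 and 12.81 at L3, a change of -5.58. On a shared second probe set sqt-3 fell by less, with a change of -1.20. In each of these genes the ages were separate, and the change exceeded the spread between arrays. Among col genes that rose, col-116 (2.45) and col-143 (2.08) had the largest changes, and both are named here after their values were seen.

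Genes of moulting and of the apical matrix that is laid down before each cuticle followed the same direction. Of 29 measured moulting genes, 20 fell and 1 rose, with a median change of -1.61. The lipocalin gene lpr-3, whose product lines the precuticle, read 4.59, 4.73 and 4.83 on day 8 against 10.09, 10.56 and 10.92 at L3 (-5.81 ± 0.20, limma adjusted p = 1.17e-15). The genes mlt-8 (-4.67 ± 0.14), acn-1 (-4.47 ± 0.16), an ACE-like gene that moulting needs, and noah-1 (-4.26 ± 0.19), a zona pellucida protein of the precuticle, fell as well. Of the hedgehog-related genes and patched-related receptors, a nematode family with many members expressed in the hypodermis around moults, 34 of 80 fell and 8 rose. Within that family grd-10 changed by -5.95 ± 0.17, ptr-4 by -4.86 ± 0.13 and grl-21 by -4.56 ± 0.17. Of 34 cuticlin genes, which encode other cuticle and matrix proteins, 12 fell and 2 rose, among them cutl-18 (-3.74 ± 0.18). Their median was -0.25 as quantile normalized but 0.05 after median centring, and only 1 rose without L3 replicate 2, L3 replicate 3 or day 8 replicate 1.

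Timing and organ-forming genes moved less. Of 15 heterochronic genes, which set the order of larval stages, 3 rose and 4 fell. The period homologue lin-42, whose transcript cycles with the moults, read 4.04, 4.05 and 4.43 on day 8 against 7.51, 7.44 and 7.99 at L3 (-3.47 ± 0.16), although a second probe set changed by 0.14 and did not pass. The gene of LIN-29, the transcription factor of the switch from larva to adult, changed by -1.54 ± 0.14, and alg-2, an Argonaute of the microRNA pathway, by -1.63 ± 0.16. Of 26 vulval genes 4 rose and 5 fell, among them lin-11 (-1.36 ± 0.15) and lin-31 (-1.04 ± 0.17), transcription factors of vulval cell fate, each with a second probe set that did not pass. Of 18 somatic gonad genes 3 rose and 2 fell, or 1 without day 8 replicate 2. Those that rose were inx-8 and inx-9, innexins of the gonadal sheath, and ipp-5, an inositol phosphatase of the spermatheca. The level of inx-8 was 12.20, 12.73 and 12.55 on day 8 against 9.87, 9.50 and 9.21 at L3 (2.97 ± 0.18).

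**Figure D3:**
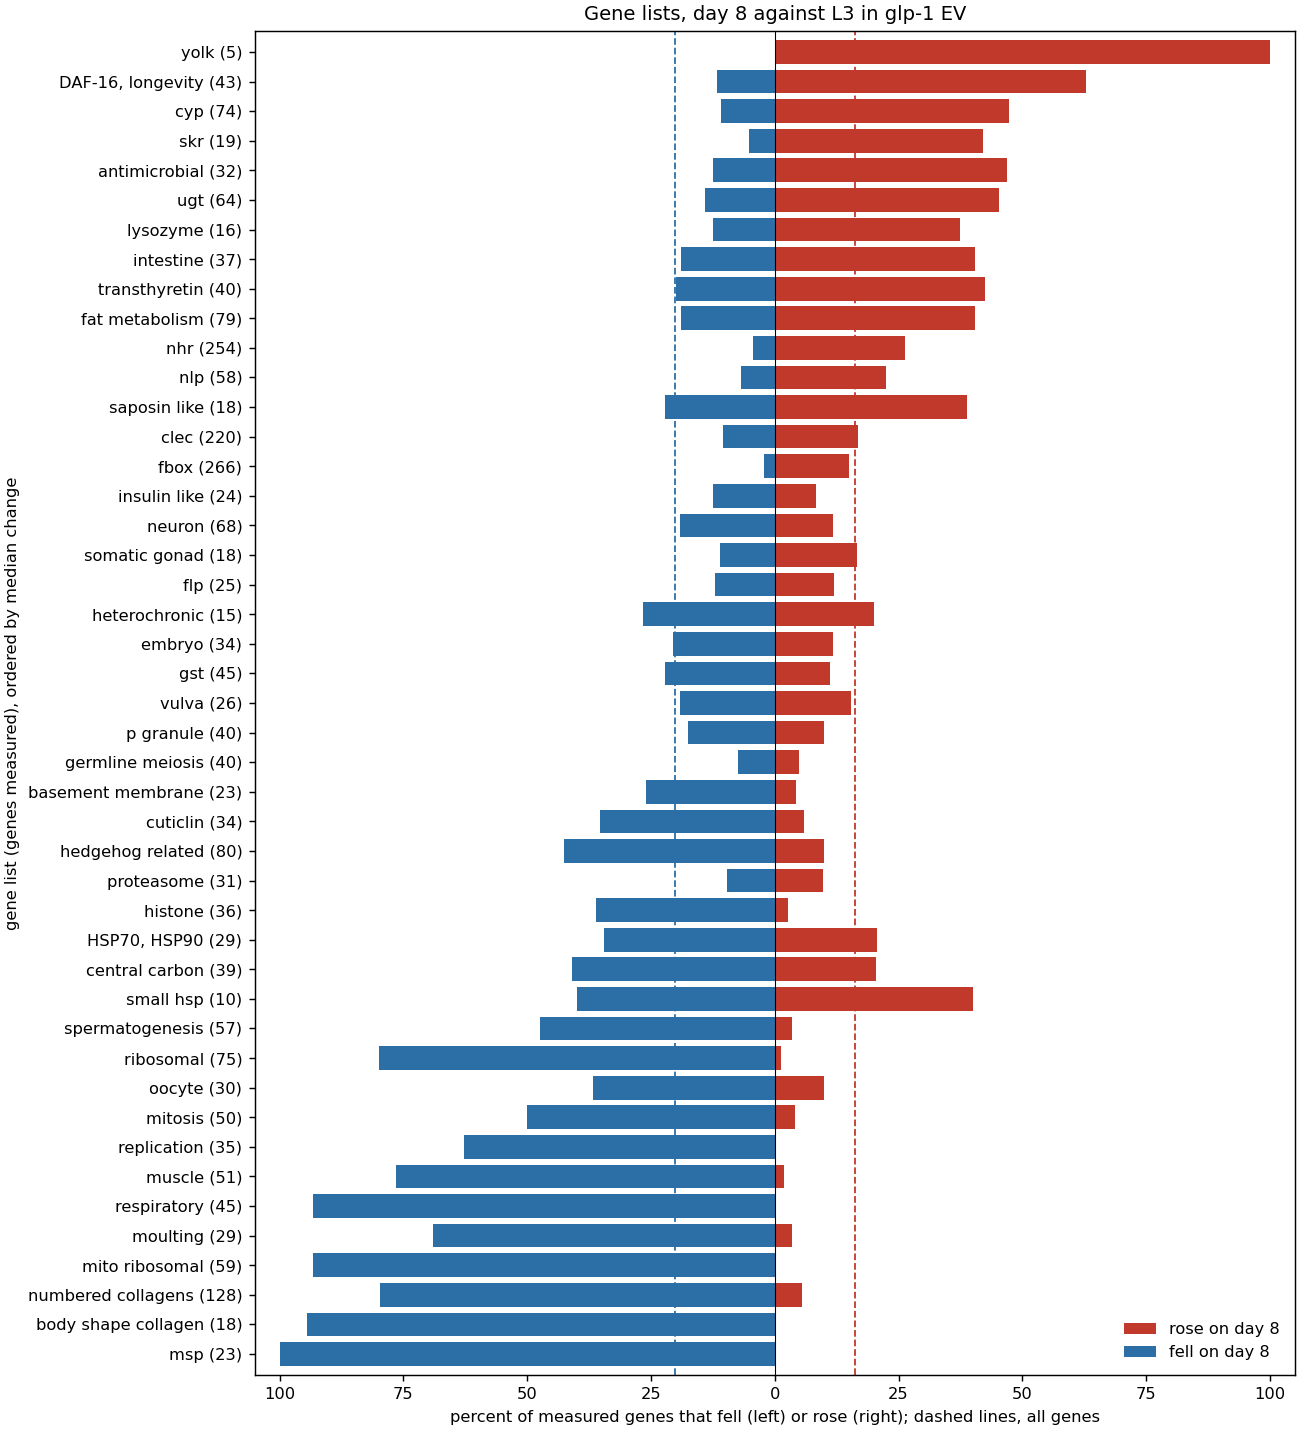
Percent of the measured genes of each list that fell (left, blue) or rose (right, red) on day 8 against L3 in glp-1 EV, with lists ordered from the highest to the lowest median change and the number of measured genes in parentheses. Dashed lines mark all 17116 genes, of which 20.2% fell and 16.1% rose. All 23 major sperm protein genes fell, and all 5 yolk genes rose.

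Transcripts of sperm were lower on day 8. All 23 genes of the major sperm proteins (msp), the cytoskeletal proteins of nematode sperm, fell, with a median change of -5.32. Nearly identical msp genes share probe sets, and 22 of the 23 were read on shared ones, so these are not independent readings. On such a probe set msp-36 read 6.35, 6.18 and 6.07 on day 8 against 12.59, 12.46 and 12.65 at L3 (-6.37 ± 0.32). The gene with a probe set of its own, msp-32, read 4.62, 4.80 and 4.61 on day 8 against 5.99, 5.92 and 5.95 at L3 (-1.27 ± 0.11), so its ages were also separate. Of 57 other spermatogenesis genes 27 fell and 2 rose, with ssq-2 (-3.75 ± 0.17), ssp-34 (-3.07 ± 0.15) and ssp-35 (-2.59 ± 0.15) among those that fell, although a second probe set of ssq-2 did not pass. Without day 8 replicate 1, 4 rose. The riser try-5, the gene of a seminal fluid protease of males, read 6.61, 6.70 and 7.60 on day 8 against 4.19, 4.13 and 4.08 at L3.

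Genes of dividing cells were lower on day 8 or did not pass, with few exceptions. Of 35 measured DNA replication genes 22 fell and none rose, with a median change of -0.82. The thymidylate synthase gene tyms-1 read 4.78, 4.82 and 4.35 on day 8 against 7.80, 8.01 and 8.39 at L3 (-3.42 ± 0.24, limma adjusted p = 9.03e-11). The clamp loader gene rfc-4 changed by -2.37 ± 0.25, mcm-6, a subunit of the replicative helicase, by -1.56 ± 0.28, and rpa-2, a single-strand binding protein, by -1.39 ± 0.13. Of 50 mitosis genes 25 fell and 2 rose, including cdk-1 (-2.07 ± 0.30), the main mitotic kinase, icp-1 (-1.76 ± 0.23), a subunit of the chromosomal passenger complex, and zen-4 (-1.64 ± 0.24), a kinesin of cytokinesis. Against that direction such-1, a subunit of the anaphase-promoting complex, changed by 1.96 ± 0.11. Of 36 histone genes 13 fell and 1 rose, with a median of -0.36 as quantile normalized but 0.09 after median centring. The histone gene that rose was the linker variant hil-1, at 9.45, 9.65 and 10.15 on day 8 against 5.17, 4.98 and 4.81 at L3 (4.76 ± 0.17), while the linker variant hil-2 changed by -2.86 ± 0.22.

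Few genes of germline proliferation and meiosis passed the test, while more oocyte genes did. Of 40 measured genes of germline proliferation and meiosis 2 rose and 3 fell. With 1 array left out, 1 rose (without L3 replicate 1 or 2, or day 8 replicate 2 or 3) and 5 fell (without L3 replicate 3). Their median level was 4.74 on day 8 and 4.95 at L3. Of 40 P granule and small RNA genes 4 rose and 7 fell, and leaving out 1 array moved these counts to as few as 2 (without L3 replicate 2 or day 8 replicate 1) and 4 (without L3 replicate 1). Of 30 oocyte and eggshell genes 3 rose and 11 fell, but 7 fell without L3 replicate 1 and 5 without L3 replicate 2. The Y-box gene cey-2 read 5.71, 5.74 and 5.43 on day 8 against 8.18, 8.24 and 7.12 at L3 (-2.23 ± 0.49, and -2.59 without L3 replicate 3). In the opposite direction the eggshell permeability gene perm-2 read 13.88, 13.83 and 13.85 on day 8 against 11.67, 11.75 and 10.36 at L3 (2.59 ± 0.23, and 2.15 without L3 replicate 3), and mel-26, a CUL-3 substrate adaptor of early embryos, changed by 2.10 ± 0.14. Of 34 early embryonic genes 4 rose and 7 fell, with a median of -0.11 as quantile normalized and 0.29 after median centring.

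Muscle transcripts were lower on day 8. Of 51 measured muscle genes 39 fell and 1 rose, with a median change of -1.21, and the 1 that rose did not pass without L3 replicate 1 or 2 or day 8 replicate 2 or 3. The perlecan gene unc-52, which anchors body muscle to the hypodermis, read 6.22, 5.43 and 5.36 on day 8 against 9.05, 9.45 and 9.16 at L3 (-3.55 ± 0.26). The troponin gene tnt-4 changed by -2.38 ± 0.25 (-2.85 without day 8 replicate 1), dim-1, a muscle attachment protein, by -2.32 ± 0.11 and pat-9, a transcription factor of muscle, by -2.57 ± 0.12. Of 23 basement membrane genes, a list that also holds unc-52, 6 fell and 1 rose, including the laminin genes lam-2 (-2.43 ± 0.20), lam-1 (-2.25 ± 0.15) and epi-1 (-1.67 ± 0.14). Second probe sets of lam-1 and lam-2 did not pass. The list's median was -0.23 as quantile normalized and 0.05 after median centring.

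Neuronal genes as a list stayed near the background. Of 68 neuronal genes 8 rose and 13 fell, with a median of 0.08 as quantile normalized and -0.45 on the deposited values. The synaptobrevin gene snb-1 read 11.36, 11.25 and 11.37 on day 8 against 10.48, 10.59 and 10.48 at L3 (0.81 ± 0.08), while dat-1, the dopamine transporter, changed by -2.62 ± 0.21 with a shared second probe set that did not pass. Of 58 neuropeptide-like genes (nlp) 13 rose and 4 fell, led by nlp-39 above and by nlp-5 (2.22 ± 0.17). The nlp list was taken by name alone, and the antimicrobial list below also names nlp genes. Of 25 FMRFamide-like genes (flp) 3 rose and 3 fell, but 1 rose without L3 replicate 2 and 5 fell without day 8 replicate 1. Of 24 insulin-like genes 2 rose and 3 fell, while 8 fell without day 8 replicate 1 and 4 rose without day 8 replicate 2. The insulin-like gene ins-7, known as an intestinal gene repressed by DAF-16 and acting as an agonist of the insulin receptor, read 11.52, 11.29 and 11.21 on day 8 against 5.53, 5.90 and 5.84 at L3 (5.58 ± 0.14, limma adjusted p = 9.46e-18). In the other direction ins-33 changed by -3.47 ± 0.19.

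Ribosomal, mitochondrial and respiratory chain genes fell almost as whole lists. Of 59 genes of the mitochondrial ribosome 55 fell and none rose, with a median change of -1.88. Its subunit gene mrpl-12 read 6.63, 6.37 and 7.21 on day 8 against 9.89, 9.65 and 9.74 at L3 (-3.02 ± 0.18), and mrps-28, mrps-16 and mrpl-15 changed by -2.80 ± 0.16, -2.78 ± 0.13 and -2.67 ± 0.13. Of 45 measured respiratory chain genes 42 fell and none rose, with a median change of -1.23. The copper chaperone gene cox-17 read 4.92, 5.43 and 5.76 on day 8 against 8.23, 8.46 and 8.59 at L3 (-3.06 ± 0.26), cyc-1, the cytochrome c1 subunit, changed by -2.52 ± 0.13, and cyc-2.2, a cytochrome c, by -3.28 ± 0.14. Of 75 genes of the cytosolic ribosome 60 fell and 1 rose, and their median change was smaller at -0.54, with rps-12 at 11.97, 12.07 and 12.31 on day 8 against 13.21, 13.13 and 13.25 at L3. The 1 that rose, rpl-12 (1.46 ± 0.16), fell on both of its shared probe sets, by 0.37 and 0.42.

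Genes of the proteasome and of central carbon metabolism were mixed. Of 31 proteasome genes 3 rose and 3 fell, with a median of -0.32 as quantile normalized and 0.18 after median centring. The proteasome subunit genes rpn-7 and rpn-3 changed by 0.68 ± 0.09 and 0.67 ± 0.09, and the core subunit gene pas-2 by -0.73 ± 0.09. Of 39 measured genes of central carbon metabolism 16 fell and 8 rose. The alcohol dehydrogenase gene adh-1 changed by -2.43 ± 0.34 and mdh-2, the mitochondrial malate dehydrogenase, by -1.65 ± 0.12. The trehalose synthase gene tps-1 read 10.57, 10.90 and 10.67 on day 8 against 8.40, 8.50 and 8.37 at L3 (2.29 ± 0.14), and pyk-2, a pyruvate kinase, changed by 1.56 ± 0.11.

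**Figure D4:**
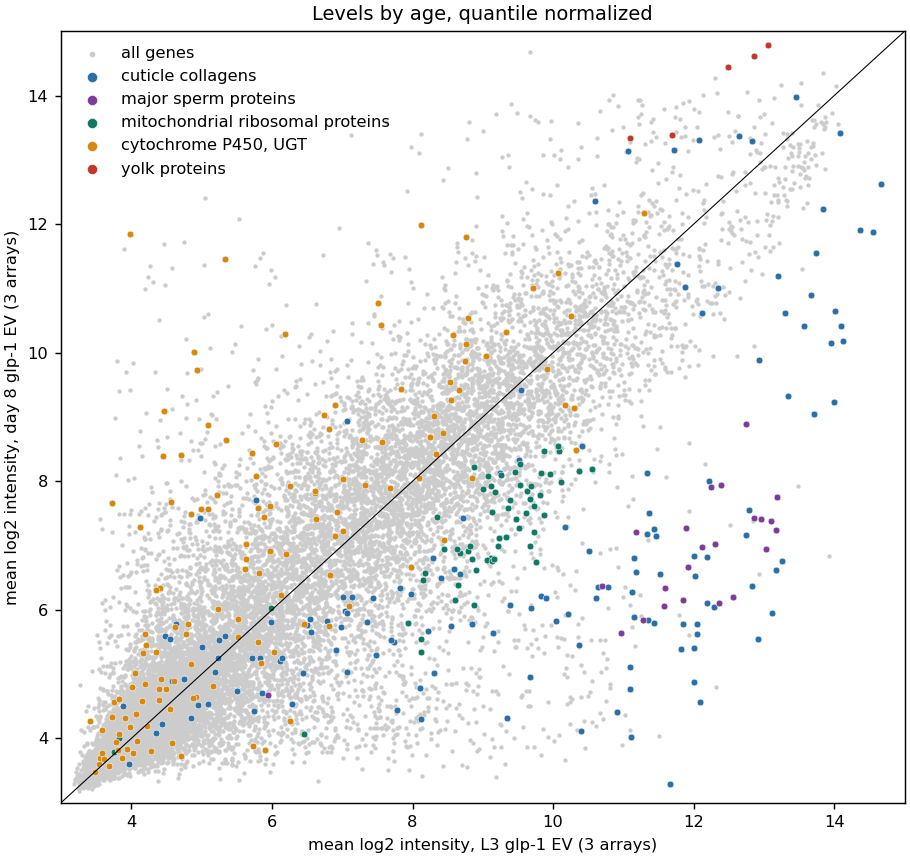
Mean quantile-normalized log2 intensity of each gene over 3 day 8 glp-1 EV arrays (y axis) against that over 3 L3 glp-1 EV arrays (x axis), with colours for 5 groups of lists and a line where both are equal. All major sperm protein genes and most mitochondrial ribosomal and cuticle collagen genes lie below the line, while yolk genes and the upper part of the P450 and UGT genes, such as cyp-35B1 at 11.84 against 3.99, lie above it.

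Yolk genes rose from an already high signal. All 5 measured vitellogenin genes rose, with changes of 1.70 to 2.23. The signal of vit-2 was 13.48, 13.17 and 13.36 on day 8 against 11.43, 11.57 and 10.30 at L3 (2.23 ± 0.28, limma adjusted p = 7.5e-07), and vit-6 read 14.52, 14.39 and 14.42 on day 8 against 12.70, 12.79 and 11.96 at L3 (1.96 ± 0.16). On shared probe sets vit-4 and vit-5 changed by 1.75 ± 0.19 and 1.74 ± 0.19, and their signal cannot be assigned to 1 gene each. Day 8 replicates 2 and 3 read 14.82 for vit-5, the highest value of the quantile-normalized scale, and vit-4 lay close to it, so changes of these genes may be understated. L3 replicate 3 was the lowest array for every vit gene. Without it the 5 changes were 1.24 to 1.83 and 4 genes still passed, while vit-1 (1.70 ± 0.32 with it, 1.24 without it) did not (largest limma adjusted p over the scalings = 0.156).

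Fat metabolism genes changed in both directions, more of them upward. Of 79 measured genes 32 rose and 15 fell. The lysosomal lipase gene lipl-1 read 10.76, 11.43 and 11.01 on day 8 against 6.07, 5.92 and 5.87 at L3 (5.12 ± 0.17). The palmitoyl-CoA desaturase gene fat-5 read 13.54, 13.61 and 13.63 on day 8 against 9.21, 8.92 and 8.29 at L3 (4.79 ± 0.17), and cpt-5, of the carnitine palmitoyltransferase family, changed by 4.10 ± 0.18. The ages of all 3 were separate. The acyl-CoA dehydrogenase gene acdh-1, known to respond to diet through vitamin B12 and propionate, changed the other way, with 5.87, 6.12 and 7.70 on day 8 against 12.92, 13.09 and 12.77 at L3 (-6.37 ± 0.31). Named after their values were seen, the stearoyl-CoA desaturase gene fat-7 changed by 3.77, and fat-6, of the same activity, by 2.03 on a shared probe set.

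Other intestinal genes leaned the same way but less evenly. Of 37 measured intestinal genes 15 rose and 7 fell. The cathepsin B genes cpr-4 (1.97 ± 0.13), cpr-6 (1.67 ± 0.10) and cpr-1 (1.47 ± 0.14) rose. The peptide transporter gene pept-1 read 8.90, 9.20 and 8.78 on day 8 against 10.49, 10.54 and 10.42 at L3 (-1.52 ± 0.23). The gene of ELT-2, the main GATA factor of the intestine, read 9.28, 9.74 and 9.38 on day 8 against 8.78, 8.55 and 8.48 at L3 (0.86 ± 0.14). Of 40 transthyretin-like genes, secreted proteins of mostly unknown role, 17 rose and 8 fell, with ttr-5 at 12.04, 12.04 and 12.16 on day 8 against 9.45, 9.64 and 9.62 at L3 and ttr-31 changed by -2.61 ± 0.17.

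Genes known as targets of DAF-16 or as factors of long life without a germline mostly rose. Of 43 measured members 27 rose and 5 fell, with a median change of 1.21. The metallothionein gene mtl-1 read 9.91, 10.25 and 10.04 on day 8 against 5.13, 5.50 and 4.70 at L3 (4.95 ± 0.25, limma adjusted p = 5.79e-13). The genes dod-19 (4.60 ± 0.11) and dod-23 (3.23 ± 0.26), named as lying downstream of DAF-16, and hil-1 also rose. The list is made of genes picked in studies of insulin receptor or germline-less mutants, so it holds targets that DAF-16 raises and targets that it lowers. A rise or a fall of a member, the dod genes included, was therefore not read as a measure of DAF-16 activity. Named after their values were seen, the superoxide dismutase gene sod-3 changed by 2.98, daf-16 itself by 1.92, the lipase gene lipl-4 by 2.64, the nuclear receptor genes nhr-80 (on a shared probe set) and nhr-49 by 1.63 and 0.82, and hlh-30, the TFEB homologue, by 0.83. In the other direction, and also named after their values were seen, dod-17 changed by -2.80 and the mitochondrial superoxide dismutase gene sod-2 by -2.28. The flavin monooxygenase gene fmo-2, by contrast, read 4.90, 5.57 and 5.05 on day 8 against 4.59, 4.72 and 4.77 at L3 and did not pass under all 3 scalings, and it too is named after its values were seen.

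Chaperone genes split. Of 10 measured small heat shock protein genes 4 rose and 4 fell. The gene hsp-12.3 read 10.12, 10.18 and 10.57 on day 8 against 6.89, 6.80 and 5.99 at L3 (3.73 ± 0.21), and hsp-12.6, known to be induced through DAF-16, changed by 2.52 ± 0.21. In contrast hsp-12.1 read 4.35, 4.10 and 4.06 on day 8 against 7.59, 7.96 and 8.19 at L3 (-3.74 ± 0.13). The call of sip-1 (-1.97 ± 0.84, limma adjusted p = 0.0487), was lost without any 1 of 5 arrays, all but L3 replicate 3, and with the replicate number as a block (adjusted p = 0.051). Its ages overlapped, and a second probe set did not pass. Of 29 measured genes of larger chaperones 10 fell and 6 rose, including the mitochondrial HSP70 gene hsp-6 (-1.04 ± 0.14) and the chaperonin genes cct-1 (-1.14 ± 0.10) and cct-5 (-0.87 ± 0.11), of which cct-5 has a second probe set that did not pass.

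Detoxification genes of phase I and of glucuronidation rose in large numbers. Of 74 cytochrome P450 genes (cyp) 35 rose and 8 fell, and of 64 UDP-glucuronosyltransferase genes (ugt) 29 rose and 9 fell. Beside cyp-35B1 and cyp-34A9, cyp-36A1 read 10.55, 9.91 and 9.55 on day 8 against 4.78, 4.94 and 4.98 at L3 (5.11 ± 0.17), and cyp-13A5 changed by 4.79 ± 0.17. The transferase gene ugt-41 read 10.89, 9.80 and 10.19 on day 8 against 6.37, 6.62 and 5.55 at L3 (4.11 ± 0.24), and ugt-27, ugt-63 and ugt-18 changed by 3.94 ± 0.18, 3.86 ± 0.30 and 3.70 ± 0.23. Glutathione S-transferase genes (gst) did not share that direction. Of 45 of them 5 rose and 10 fell, with gst-29 showing the largest rise and gst-38, gst-28 and gst-6 at -3.22 ± 0.17, -2.94 ± 0.15 and -2.01 ± 0.10.

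Genes of antimicrobial defence rose more often than they fell. Of 32 measured antimicrobial and infection response genes 15 rose and 4 fell, of 16 lysozyme genes 6 rose and 2 fell, and of 18 saposin-like genes 7 rose and 4 fell. The caenacin peptide gene cnc-6 read 10.03, 9.49 and 9.59 on day 8 against 3.77, 4.06 and 3.93 at L3 (5.78 ± 0.23), and irg-6, an infection response gene, read 9.34, 9.58 and 9.40 against 4.55, 4.56 and 4.42 (4.93 ± 0.10). The saposin-like genes spp-12 (5.36 ± 0.36) and spp-27 (5.22 ± 0.10) and the lysozyme genes lys-10 and ilys-2 (5.81 ± 0.39) averaged between 3.77 and 4.33 at L3, below the 5.41 that is the median of the scale. Others fell, with irg-4 at 5.13, 5.68 and 6.97 on day 8 against 10.19, 10.20 and 10.10 at L3 (-4.24 ± 0.30) and spp-13 and spp-4 at -3.38 ± 0.28 and -3.37 ± 0.19. Of 220 C-type lectin genes (clec) 37 rose and 23 fell, near the background for rises. Their median was 0.13 as quantile normalized and -0.28 on the deposited values. In that family clec-223 changed by 4.85 ± 0.23 and clec-180, clec-4 and clec-265 by -4.89 ± 0.18, -4.38 ± 0.13 and -4.26 ± 0.21.

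Nuclear receptors and genes of ubiquitin ligases closed the lists. Of 254 nuclear receptor genes (nhr) 67 rose and 11 fell, with a median of 0.30 as quantile normalized and -0.14 on the deposited values. The receptor gene nhr-76 read 9.58, 9.85 and 9.79 on day 8 against 6.33, 6.22 and 5.63 at L3 (3.68 ± 0.21), nhr-57, known as a target of the hypoxia factor HIF-1, changed by 3.20 ± 0.14 and nhr-202 by 3.17 ± 0.17, while nhr-234 changed by -3.20 ± 0.18. Of 266 F-box genes 40 rose, near the background for rises, and 6 fell. Their median was 0.13 as quantile normalized and -0.19 on the deposited values, and fbxa-143 had the largest change among them (4.43 ± 0.12). Of 19 Skp1-related genes (skr), partners of F-box proteins in ligase complexes, 8 rose and 1 fell. The gene skr-5 read 9.40, 9.19 and 8.54 on day 8 against 5.12, 5.28 and 5.02 at L3 (3.91 ± 0.19). The faller skr-11 (-0.48 ± 0.16) did not pass without day 8 replicate 2, and 2 fell without L3 replicate 3.

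By chromosome, the share of genes that rose ran from 13.1% on I to 19.7% on X, and the share that fell from 14.4% on V to 25.1% on I. The 8 measured genes of the mitochondrial genome held none that rose and 1 that fell, although the nuclear genes of the respiratory chain mostly fell.

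The age change of glp-1 EV was then set against that of WT EV in the same fit, as the change in glp-1 EV minus the change in WT EV. The difference cancels a shift of a probe set that is equal on all arrays of an age, but not one that varies with the level. It was tested for every probe set. Its median over all probe sets was -0.05 as quantile normalized, -0.07 as deposited and -0.25 after median centring. Small differences thus also depend on the scaling. The age change was more positive in glp-1 EV for 4733 probe sets (21%) and more negative for 5890 (26.1%), 47.1% in all. By gene it was more positive for 3735 (21.8%) and more negative for 4452 (26%) of 17116, or 47.8%. The WT group of day 8 has 2 arrays, which limits the precision. WT worms carry a germline, of which e2141ts leaves only a few cells. In RNA of whole worms, a difference between the genotypes cannot be told apart from a different share of each tissue, which was not tested.

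Most genes of proliferation, of the germline and of oocytes had a more negative change in glp-1 EV. Of 35 replication genes 34 had a more negative change in glp-1 EV and none a more positive one, with a median change of -0.82 in glp-1 EV and 1.81 in WT EV. Of 50 mitosis genes 40 were more negative and 1 more positive, of 40 germline and meiosis genes 31 and 1, of 40 P granule genes 29 and 0, and of 30 oocyte genes 26 and 0. For tyms-1 the change was -3.42 ± 0.24 in glp-1 EV and 2.56 ± 0.26 in WT EV (difference -5.97 ± 0.35, limma adjusted p = 4.44e-11).

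Most sperm and muscle genes, and a minority of collagen genes, had a more positive change in glp-1 EV. The median change of the msp genes was -5.32 in glp-1 EV and -7.21 in WT EV, and 21 of 23 had a more positive change in glp-1 EV. Of 57 spermatogenesis genes 37 were more positive and 3 more negative, of 51 muscle genes 29 and 2, and of 128 numbered collagens 42 and 5. Moulting genes went the other way, with 15 of 29 more negative in glp-1 EV and 7 more positive, and medians of -1.61 in glp-1 EV and -1.55 in WT EV. For body-shape collagens the medians were -4.37 in glp-1 EV and -4.62 in WT EV, with 2 of 18 more positive and 4 more negative.

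Intestinal, fat, detoxification and defence genes had more positive changes in glp-1 EV. Of 37 intestinal genes 27 were more positive and 4 more negative, with median changes of 0.54 in glp-1 EV (0.35 without day 8 replicate 3) and -0.90 in WT EV. Of 79 fat metabolism genes 46 were more positive and 12 more negative, of 74 cyp genes 39 and 7, of 64 ugt genes 41 and 4, of 32 antimicrobial genes 21 and 1, and of 43 DAF-16 and longevity genes 27 and 5. The last of these lists holds genes picked in studies of insulin receptor or germline-less mutants. Its count against WT is therefore not independent of how its members were chosen. The gene cpt-5 changed by 4.10 ± 0.18 in glp-1 EV and by -0.63 ± 0.20 in WT EV, and elt-2 by 0.86 ± 0.14 and -1.21 ± 0.16. The median change of the 5 measured yolk genes was 1.75 in glp-1 EV and 0.80 in WT EV, with 4 more positive in glp-1 EV and none more negative. In WT EV vit-2, vit-4, vit-5 and vit-6 changed by 0.20, 0.80, 1.12 and 1.18, and vit-1 by -2.70 ± 0.36. The change of vit-1 in glp-1 EV, 1.70 ± 0.32, did not pass without L3 replicate 3. Against the direction of its list, fmo-2 changed by 0.48 in glp-1 EV and 5.04 in WT EV (difference -4.57, named after its values were seen).

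Most genes of the ribosomes, the respiratory chain and the proteasome had a more negative change in glp-1 EV than in WT EV. Of 75 ribosomal genes 67 had a more negative change in glp-1 EV and 2 a more positive one, with medians of -0.54 in glp-1 EV and 0.14 in WT EV. Of 59 mitochondrial ribosomal genes 52 were more negative and none more positive, with medians of -1.88 and -0.78. Of 45 respiratory chain genes 26 were more negative and 6 more positive, and of 31 proteasome genes 28 were more negative and none more positive.

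**Figure D5:**
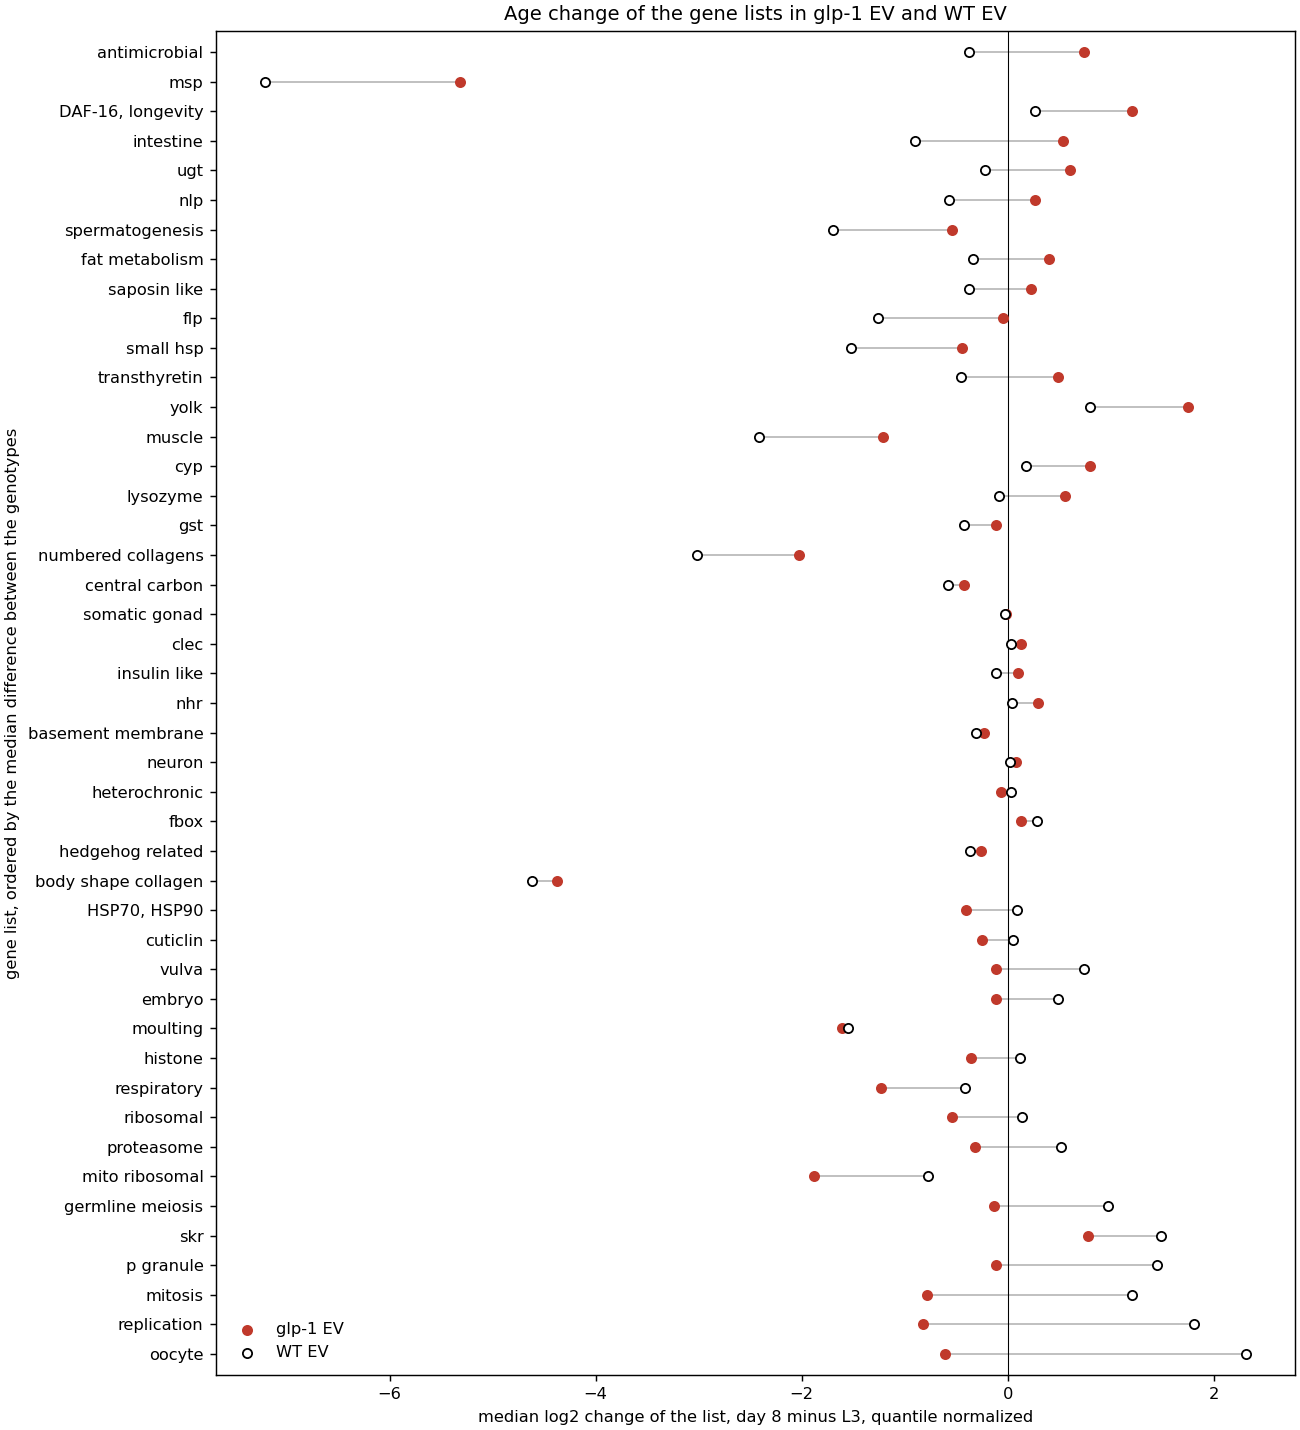
Median log2 change, day 8 minus L3, of each gene list (x axis) in glp-1 EV (filled red) and in WT EV (open), with lists ordered from the most positive to the most negative median difference between the genotypes. Replication genes lie at -0.82 in glp-1 EV and 1.81 in WT EV, and msp genes at -5.32 and -7.21.

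The age change was also read in the glp-1 worms under ash-2 RNAi, whose 6 arrays are separate from the 6 EV arrays but belong to the same ages. Of the 2761 genes that rose in glp-1 EV, 2668 (96.6%) had a positive change under ash-2 RNAi, and of the 3464 that fell, 3382 (97.6%) had a negative one. The median change of the genes that rose was 1.39 in glp-1 EV and 1.24 under ash-2 RNAi, and that of the genes that fell was -1.23 and -1.12. Both medians in EV come from genes chosen on the EV arrays, which favours larger values there. By list, the median change of the mitochondrial ribosomal genes was -1.88 in EV and -1.37 under ash-2 RNAi, that of the DAF-16 and longevity genes 1.21 and 0.79, and that of the yolk genes 1.75 and 1.48.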

How the data were processed

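RNA of whole worms was labelled with biotin and read on 1 array per sample. The authors deposited a log2 intensity for every probe set and sample, and RMA is the tool that the submitters' processing notes name. Its version was not given in the sources used here. Gene names came from the platform annotation: 20766 probe sets name 1 gene, 887 several and 895 none, and 20701 got a current symbol from the reference gene table. Shared probe sets (6711, with the suffix _s_at or _x_at) may read more than 1 transcript. Empty cells (6, in 5 probe sets) stayed empty.

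The log2 values were quantile normalized over 23 arrays and fitted with limma 3.58.1 in R 4.3.3, with 1 mean per group over all arrays, default empirical Bayes settings and Benjamini-Hochberg adjustment over 22548 probe sets. The same fit was made on deposited and on median-centred values. Errors after ± are limma's standard errors, and genes said to be separate have no overlap between the ages. These errors pool the spread within groups over all 23 arrays, so they can be smaller than the 6 arrays alone would give. For nlp-39 the SD over 3 arrays was 0.59 on day 8 and 0.33 at L3, beside a standard error of 0.21. The number of arrays limits the precision. A gene was read on its brightest probe set of 1 gene, a shared one only where no other exists (3500 of 17116 genes). Except for sqt-3, second probe sets are mentioned only where their call differed. Sizes could differ where the call was the same. The second probe set changed by 1.42 for dod-19 and -2.44 for acn-1, both shared, by -0.83 for pat-9 and by -0.62 for alg-2.

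Genes named are the 10 largest rises and falls among genes on their own probe sets whose ages do not overlap, the 4 passing members per list with the largest change on probe sets of their own (on any where fewer passed; larger changes on shared ones are then not named), all yolk genes and stage markers, and the 6 largest differences from WT in each direction. The comparison and the 45 lists were chosen with earlier results of these data known, and lists are described by counts and medians with no test. Some genes, such as hil-1 and unc-52, belong to more than 1 list, so counts of different lists are not independent. The steps were run on simulated data with few changed probe sets and the same shift on every day 8 array. That setting is simpler than these data, so it does not show how the scalings handle ages whose distributions differ in shape. Replicate numbers are shared between the ages, but residuals of same-numbered arrays correlated at -0.09, 0.03 and -0.03, so the numbers do not pair samples. Alternatives were the scalings, other sets of arrays, leaving out each array, filters, a replicate block, variance settings, array weights and a 1.5-fold minimum. Promoter and protein sequences were not used here.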

Additional observations from a re-analysis of the deposited data

Results flagged for a closer look

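The age change of glp-1 EV differed from that of WT EV, by limma's test of the difference itself under all 3 scalings, for 4733 probe sets with a more positive change and 5890 with a more negative one. Among the genes, the largest positive differences were those of cyp-35B1 (5.88, from a change of 7.86 in glp-1 EV and 1.98 in WT EV), F48E3.2 (5.39), T10B5.8 (5.37), asp-14 (5.26), an aspartyl protease gene, cnc-7 (5.07), a caenacin gene, and H39E23.3 (5.02), the last 3 on shared probe sets. For asp-14 the change was 1.79 in glp-1 EV and -3.48 in WT EV.

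The largest negative differences were those of cav-1 (-7.16), the caveolin gene, clec-266 (-6.95) and inx-3 (-5.95), the last pair on shared probe sets, T09B4.5 (-6.36), tyms-1 (-5.97) and C01G6.3 (-5.74). For cav-1 the change was 0.24 in glp-1 EV, where it did not pass, and 7.40 in WT EV, with 4.82, 4.78 and 5.19 on day 8 against 4.66, 5.24 and 4.18 at L3 in glp-1 EV. A second probe set of T09B4.5 changed by -0.42 in glp-1 EV and did not pass, while C01G6.3 did not pass on its own probe set (-0.58) and fell on a shared one (-0.93). Groups of 2 or 3 arrays are too small to test a single array as an outlier.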

How the results depend on the processing

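The counts of probe sets that rose and fell on day 8, 3708 and 4390 under all 3 scalings, depend most on the scaling. Median centring alone called 13171 higher, the deposited values alone called 12398 lower, and quantile normalization alone, an alternative added after the data were seen, called 7236 higher. Leaving out shared probe sets left 2370 that rose and 2707 that fell, by having fewer to test, and a 1.5-fold minimum left 1820 and 2203. For the difference from WT, 4733 more positive and 5890 more negative, the shared probe sets left out gave 3022 and 3520, and a 1.5-fold minimum 2943 and 2886. Leaving out 1 array gave 3491 to 3641 that rose, 4121 to 4261 that fell, 4349 to 4749 more positive and 5376 to 5856 more negative. The replicate block gave 3714, 4400, 4751 and 5988, and among named genes it ended the call of sip-1 alone. List medians below 0 as quantile normalized were above 0 after median centring for the cuticlin (0.046), histone (0.091), embryo (0.29), proteasome (0.18), small heat shock (0.033), basement membrane (0.051), heterochronic (0.45), vulva (0.28), somatic gonad (0.35), germline and meiosis (0.11), P granule (0.16), flp (0.47) and gst (0.23) lists. Medians above 0 were below 0 on the deposited values for the neuron (-0.45), clec (-0.28), nhr (-0.14), F-box (-0.19), nlp (-0.19) and insulin-like (-0.48) lists. Over all alternatives, values of named genes kept their call and direction in 3235 cases, lost the call in 76 (37 genes) and gained it in 4. Of the 76 losses, 37 came through the 1.5-fold minimum and the rest through other alternatives, among them leaving out 1 array. Genes that lost the call when 1 array was left out were vit-1, sqv-8, rad-51, pgl-2, flp-8, flp-3, flp-10, sip-1, lys-8 and skr-11. The 12 genes named for their difference from WT kept call and direction in all 259 cases. The cause of these shifts was not tested. Signal near background limits the genes that read low at both ages.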

Other observations

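Genes sharing the first part of their name were counted for all 233 such classes of at least 8 genes, and the classes below were picked after their counts were seen, with no test. Among classes with many rises were the papain-like cathepsins cpr (6 of 8), the body-size genes sma (6 of 8), the serpins srp (5 of 8), the autophagy genes atg (7 of 12, none fell), the pals genes, many of which are known from the response to intracellular pathogens (13 of 23, none fell), the short-chain dehydrogenases dhs (15 of 30) and the carboxylesterases cest (13 of 32). The background for rises is 16.1% of genes.

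Among classes with many falls were nol, genes of nucleolar proteins (8 of 8), the RNA polymerase II subunit genes rpb (9 of 10), the cytochrome c oxidase genes cox (12 of 13), the surface genes bus (12 of 14), dbd (11 of 13), idpp (13 of 16), the genes abu, known as activated when the unfolded protein response is blocked (8 of 11), the FK506-binding proteins fkb (7 of 8) and the pharyngeal gland genes phat (6 of 8). The background for falls is 20.2% of genes. In WT EV the median change of the atg class was 1.26, against 0.88 in glp-1 EV on the same scale, and that of the pals class was 0.15, against 0.79 in glp-1 EV.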
